A study of Saccharomyces cerevisiae with 10 samples.

Results

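The genes described are 46 members of amino acid synthesis in budding yeast, outside the arginine, branched-chain and sulphur pathways. They were chosen by gene symbol: GCN4, the transcriptional activator of amino acid synthesis genes, and 45 enzymes of histidine, lysine, aromatic, threonine, serine, asparagine, aspartate, glutamate, glutamine and proline metabolism. All 46 were measured among 6377 features, each by 1 reporter printed as 2 spots, and all stood above background in both channels of all 10 arrays. The rule uses symbols and no measured value, and the list itself was drawn up with earlier results of these data known.

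The study set 5 strains with changes in NuA4 against a common reference pool on two-channel oligonucleotide arrays, with 2 arrays per strain. NuA4 acetylates histones H4 and H2A in nucleosomes. Its catalytic subunit Esa1 sits with Epl1, Yng2 and Eaf6 in a smaller module, and Eaf1 is the platform that joins the module to the other subunits. The series title poses the question of how interactions inside NuA4 affect that module.

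In 1 strain, tagged Epl1, the protein carried a FLAG tag and no truncation by its label, and this strain was the control for the Epl1 mutants. Epl1 1:380 and Epl1 1:485 carried the same tag on Epl1, and the numbers were taken as the span of residues left of Epl1, which has 832 codons. The eaf1 deletion was set against Eaf1 1:982, which carried an HA tag. The label of Eaf1 1:982 calls it a truncation, but the EAF1 gene is 982 codons long, so by its label nothing is cut off. The sample titles of the deletion name an HA tag too, and its source label does not. Replicate a had the strain RNA in Cy3 and replicate b had it in Cy5. The labels do not say that replicates were separate cultures, so the p-values cover array-to-array spread only, part or all of which could be technical. The medium is not given in the sources used here.

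When an amino acid is scarce, uncharged tRNA activates the kinase Gcn2, translation of GCN4 mRNA rises, and the Gcn4 protein activates genes of many amino acid pathways at once. This response is known as general amino acid control. Because Gcn4 is controlled largely at translation and by protein turnover, the level of its RNA is not a measure of its activity. Several pathways share precursors: the shikimate pathway feeds tryptophan, phenylalanine and tyrosine, and aspartate feeds asparagine and threonine.

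Values are log2 ratios of strain over pool from the deposited matrix, relative to the bulk of genes on each array. The median signal over genes was 674 to 1086 units in the Cy5 channel and 334 to 585 in the Cy3 channel, and precision is limited by the number of arrays. As a check of labels, EAF1 stood at -2.00 and -2.14 in the eaf1 deletion and at 0.74 and 0.54 in Eaf1 1:982, and between -0.27 and 0.15 on the Epl1 arrays. EPL1 stood at -0.05 and -0.01 in tagged Epl1, 0.34 and 0.36 in Epl1 1:380, and 0.57 and 0.37 in Epl1 1:485. It read 0.595 and 0.581 in Eaf1 1:982 and 1.06 and 1.14 in the deletion. Differences between strains come from limma, with the fit's standard error (SE), and each strain had n = 2 arrays. A gene passed the test at a Benjamini-Hochberg adjusted p under 0.05, and it was called where the fold also exceeded 1.7, the limit in the series' design text. The strain sample of Epl1 1:380 replicate b alone had the RNA isolation label of the pool.

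Most of the 46 genes had lower RNA in the Epl1 truncations, by amounts that mostly stayed under the fold limit. In Epl1 1:380 against tagged Epl1, 29 of 46 fell and 4 rose at the adjusted p, against 19.1% of all features lower and 21.7% higher. In Epl1 1:485, 27 fell and 5 rose, against backgrounds of 17.6% and 19.4%. In the eaf1 deletion against Eaf1 1:982, 17 fell and 7 rose, against 15.8% and 17.8%. As shares of the 46 genes, those that fell made up 63.0%, 58.7% and 37.0% in that order, and those that rose 8.70%, 10.9% and 15.2%.

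The median difference over the members was -0.27 in Epl1 1:380, -0.24 in Epl1 1:485 and -0.12 in the deletion, while the medians over all features were 0.0098, 0.0061 and 0.0068. By replicate, the medians were -0.23 in a and -0.29 in b for Epl1 1:380. They were -0.25 in both replicates for Epl1 1:485, and -0.11 and -0.15 for the deletion. The 2 truncations share the tagged Epl1 arrays as their control, and the deletion comparison shares no array with them. Of the members, 27 fell in both truncations and 16 of these also fell in the deletion, among them all 6 lysine genes. ARO1 and HIS2 rose in all 3 comparisons. With the replicate block, 29 fell in both truncations and 21 in all 3, and 3 rose in all 3. Such overlaps were not counted over all features, so these counts have no background share beside them. In none of the 3 comparisons did HIS7, TRP3, TRP4, ARO8, ARO9, HOM2, HOM6, SER33, GLN1 or GDH2 pass the test.

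These directions are relative to the other genes on an array. With arrays centred on added control RNA instead, the median of all features moved by 0.23, 0.27 and 0.29 in Epl1 1:380, Epl1 1:485 and the deletion. The members' median became -0.04, 0.02 and 0.17, so its sign turned in Epl1 1:485 and in the deletion. On that scale 1, 2 and 1 members passed as lower, against 1.11%, 0.61% and 0.44% of all features. Of the genes that fell, 4 of 29, 6 of 27 and 7 of 17 had a positive difference on that scale. This centring moves every feature of a comparison by the same amount. It therefore could not change the place of a gene relative to the median feature. The added RNA itself read 0.33 and 0.79 in the replicates of tagged Epl1. The series' design text states that no global change of mRNA was found.

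The number of genes that passed was smaller when the values were made again from the scanner intensities. With normexp background correction and global loess, and no correction of gene-specific dye bias, 17, 15 and 5 members fell and 1, 1 and 2 rose, in the same order. The backgrounds were lower as well, at 8.59%, 7.17% and 4.94% lower and 9.63%, 8.23% and 6.08% higher. With the dye orientation as a block on the same intensities, 30, 30 and 18 fell and 4, 3 and 7 rose. The block raised the backgrounds too, to 22.8%, 22.1% and 17.99% lower and 23.68%, 22.17% and 19.26% higher. The members' medians on these intensities were -0.29, -0.27 and -0.13. Without that block, LYS12, LYS21, TRP1, ARO4, PRO1 and PRO3 no longer passed in any of the 3 comparisons. LYS4 and HIS6 did not pass in Epl1 1:485 and the deletion, ARO3 in Epl1 1:380 and the deletion, LYS9 and THR4 in the deletion, AAT1 in the truncations, ARO2 in Epl1 1:485 and the deletion, and ARO1 in the truncations. TRP5, SER3, AAT2, GDH3 and PRO2 no longer passed in the truncations, SER1 in Epl1 1:380 and the deletion, and HOM3, GLT1 and GDH1 in the deletion. Without the Epl1 1:380 array that has the other isolation label, the members' median difference in that strain was -0.25, against 0.0026 over all features.

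**Figure D1:**
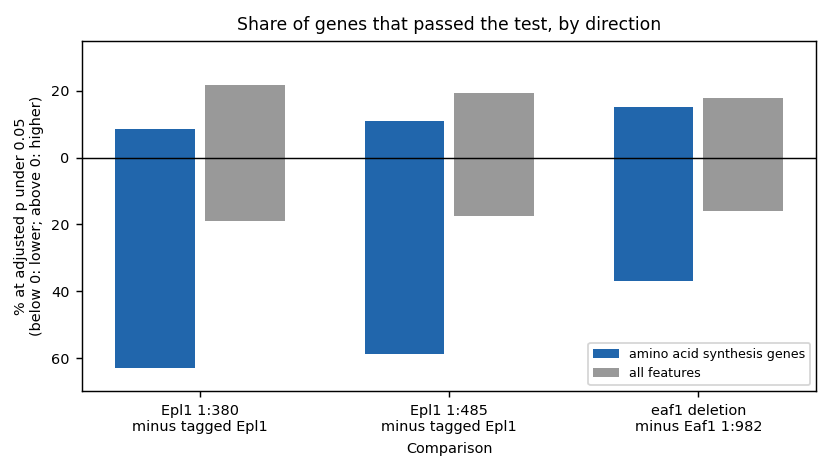
Share of the 46 amino acid synthesis genes (blue) and of all 6377 features (grey) that passed at an adjusted p under 0.05, in percent, with genes that fell drawn below 0 and genes that rose above it. The blue bars reach 63.0%, 58.7% and 37.0% below 0, against 19.1%, 17.6% and 15.8% for all features.

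**Figure D2:**
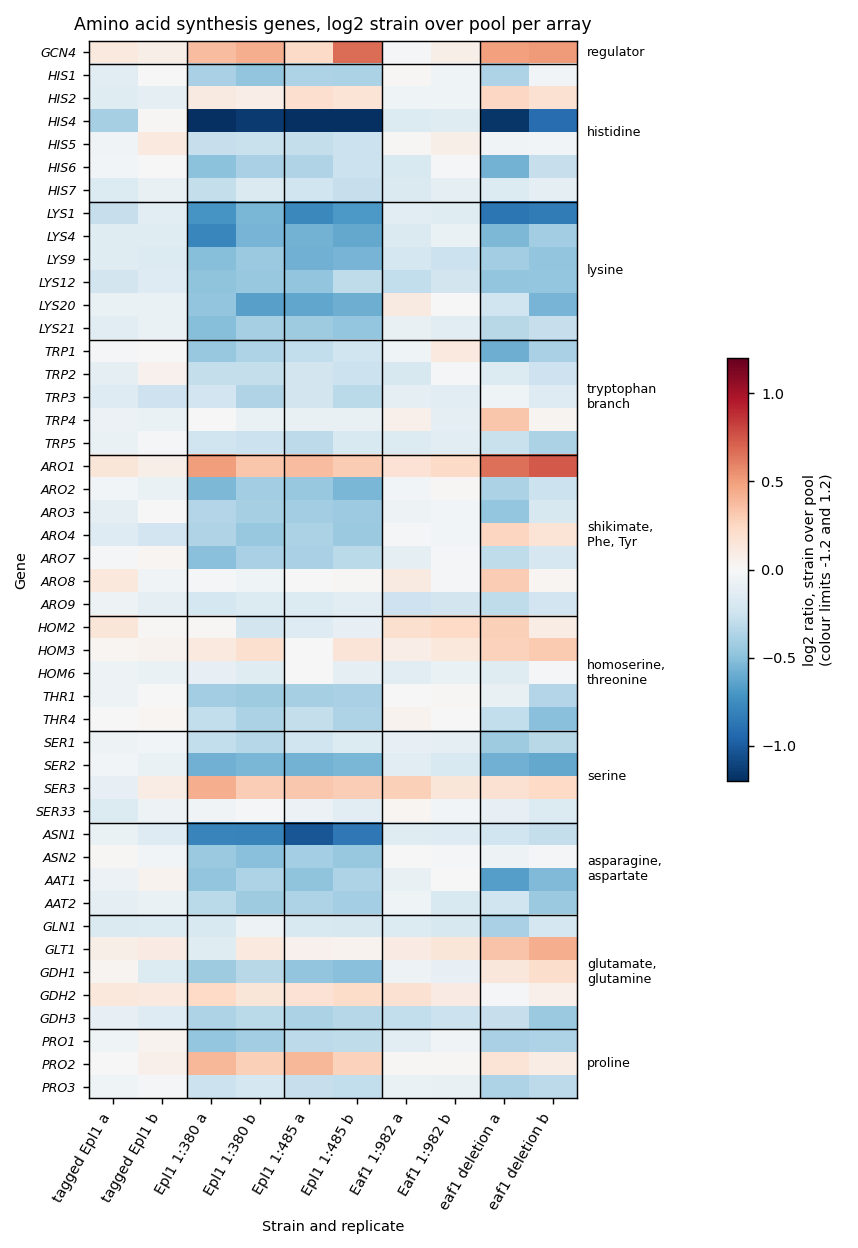
Log2 ratio of strain over pool for each of the 46 genes (rows, grouped by pathway) on each of the 10 arrays (columns, 2 per strain), with blue for values below the pool and red for values above it. HIS4, LYS1, SER2 and the other lysine genes are blue in both truncations and in the deletion, whereas ASN1 is darkest in the truncations, between -0.79 and -1.02. The lysine genes lie below the pool in the control strains too, except LYS20 in Eaf1 1:982. LYS12 reads -0.22 and -0.15 in tagged Epl1 and -0.30 and -0.22 in Eaf1 1:982.

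GCN4 RNA rose in Epl1 1:485 and in the deletion. The arrays gave 0.11 and 0.07 in tagged Epl1, 0.37 and 0.44 in Epl1 1:380, 0.23 and 0.67 in Epl1 1:485, -0.03 and 0.07 in Eaf1 1:982, and 0.50 and 0.51 in the deletion. Each mutant's arrays lay above those of its control, and those of Epl1 1:485 were far apart. The difference was 0.48 ± 0.12 in the deletion (SE, 1.40-fold, adjusted p = 0.0116) and 0.36 ± 0.12 in Epl1 1:485 (adjusted p = 0.0372). In Epl1 1:380 it was 0.31 ± 0.12, which did not pass (adjusted p = 0.0573), and with the replicate block it passed (adjusted p = 0.027). Without replicate b of Epl1 1:485 the difference there was 0.14 and did not pass. From the normexp intensities the differences were 0.39, 0.30 and 0.47 in Epl1 1:380, Epl1 1:485 and the deletion. GCN4 passed there in no mutant (adjusted p = 0.216, 0.356 and 0.176), and with the replicate block on those intensities it passed in all 3 (adjusted p = 0.0069, 0.0263 and 0.00319).

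Histidine synthesis held the member with the largest fall. HIS4, a multifunctional enzyme that acts at early steps and at the last step, stood at -0.40 and 0.02 in tagged Epl1 and at -0.16 and -0.15 in Eaf1 1:982. In Epl1 1:380 it read -1.22 and -1.15, in Epl1 1:485 -1.41 and -1.35, and in the deletion -1.17 and -0.91. No mutant array overlapped a control array, although the tagged Epl1 replicates lay apart. HIS4 fell by 0.99 ± 0.13 in Epl1 1:380 (1.99-fold, adjusted p = 0.000364), by 1.19 ± 0.13 in Epl1 1:485 (2.29-fold, adjusted p = 0.000194) and by 0.89 ± 0.13 in the deletion (1.85-fold, adjusted p = 0.00095).

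HIS4 was the only member called in Epl1 1:380 and in the deletion, and 1 of 2 called in Epl1 1:485. Of all features, 1.05%, 0.69% and 0.612% were called lower in the 3 comparisons, and no member was called higher, where 2.76%, 2.23% and 2.07% of features were. The HIS4 call in the deletion was lost without replicate a of the deletion (-0.76), from the normexp intensities (-0.77) and on the scale of added RNA (-0.59). The call in Epl1 1:380 was lost on the scale of added RNA (-0.76). In each of these cases HIS4 still passed the adjusted p, and the loss came from the fold limit.

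The other histidine enzymes moved less and not all one way. HIS6, an isomerase of the middle of the pathway, fell in all 3 mutants, by 0.43 ± 0.10, 0.30 ± 0.10 and 0.32 ± 0.10 in Epl1 1:380, Epl1 1:485 and the deletion. HIS1, which catalyses the first step, fell by 0.37 and 0.31 in the truncations, and its difference of -0.19 in the deletion did not pass. HIS5, the aminotransferase, fell by 0.31 in each truncation, with -0.08 in the deletion. HIS2, the histidinol phosphatase, rose by 0.22 ± 0.05, 0.31 ± 0.05 and 0.27 ± 0.05. HIS7, which forms the imidazole ring, did not pass, with -0.10, -0.14 and 0.00.

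Lysine synthesis was the one pathway group in which every listed member fell in all 3 mutants on the deposited values, with group medians of -0.39, -0.43 and -0.28. Yeast makes lysine through aminoadipate, and the 6 genes cover most steps from homocitrate to lysine. LYS1, the saccharopine dehydrogenase of the last step, had array values of -0.28 and -0.13 in tagged Epl1, -0.70 and -0.55 in Epl1 1:380, and -0.78 and -0.69 in Epl1 1:485. It read -0.13 and -0.15 in Eaf1 1:982 and -0.87 and -0.84 in the deletion. The deletion arrays were the lowest of the 10. LYS1 fell by 0.42 ± 0.07 in Epl1 1:380 (adjusted p = 0.00162), by 0.53 ± 0.07 in Epl1 1:485 (adjusted p = 0.000628) and by 0.71 ± 0.07 in the deletion (1.64-fold, adjusted p = 0.000155).

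The homocitrate synthases LYS20 and LYS21 catalyse the first step. LYS20 fell by 0.48, 0.52 and 0.45, and LYS21 by 0.35, 0.34 and 0.19. LYS4, the homoaconitase, fell by 0.53, 0.45 and 0.35. LYS12, the homoisocitrate dehydrogenase, fell by 0.28, 0.20 and 0.21, and LYS9, which forms saccharopine, by 0.33, 0.41 and 0.21. On the scale of added RNA, LYS9, LYS12 and LYS21 had positive differences in the deletion, as did LYS12 in Epl1 1:485.

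In the tryptophan branch, 3 of 5 genes fell in Epl1 1:380, 2 in Epl1 1:485 and 1 in the deletion. Of all features, 19.1%, 17.6% and 15.8% fell in that order. TRP1, the phosphoribosylanthranilate isomerase, gave -0.01 and -0.01 in tagged Epl1, -0.46 and -0.37 in Epl1 1:380, -0.30 and -0.24 in Epl1 1:485, -0.05 and 0.11 in Eaf1 1:982, and -0.59 and -0.39 in the deletion. All mutant arrays lay below all control arrays. TRP1 fell by 0.41 ± 0.08 (adjusted p = 0.00369), 0.26 ± 0.08 (adjusted p = 0.031) and 0.52 ± 0.08 (adjusted p = 0.0014). TRP1 passed in no mutant from the normexp intensities (adjusted p = 0.368, 0.55 and 0.269) or from print-tip loess of the intensities (adjusted p = 0.124, 0.29 and 0.0829), and it passed in all 3 with the replicate block on the former. TRP5, the tryptophan synthase, fell by 0.19 in each truncation, and its -0.17 in the deletion passed with the replicate block alone (adjusted p = 0.0472). TRP2, a subunit of anthranilate synthase, fell by 0.26 in Epl1 1:380. Its -0.21 in Epl1 1:485 passed with the block alone (adjusted p = 0.0352), and its -0.11 in the deletion did not pass. TRP3, the other subunit, had differences from -0.09 to 0.02, and TRP4, the anthranilate phosphoribosyltransferase, from -0.01 to 0.21, and neither passed.

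The shikimate pathway and its phenylalanine and tyrosine arms held genes that moved in opposite directions. ARO2, the chorismate synthase, read -0.03 and -0.08 in tagged Epl1, -0.54 and -0.41 in Epl1 1:380, -0.45 and -0.55 in Epl1 1:485, -0.04 and 0.01 in Eaf1 1:982, and -0.38 and -0.26 in the deletion. It fell by 0.42 ± 0.07 (adjusted p = 0.00126), 0.45 ± 0.07 (adjusted p = 0.0011) and 0.31 ± 0.07 (adjusted p = 0.00786). ARO1, which carries several consecutive activities of the same pathway just upstream, was among the members that rose. Its arrays gave 0.14 and 0.07 in tagged Epl1, 0.50 and 0.33 in Epl1 1:380, 0.37 and 0.30 in Epl1 1:485, 0.17 and 0.23 in Eaf1 1:982, and 0.66 and 0.74 in the deletion. The rise was 0.31 ± 0.07, 0.23 ± 0.07 and 0.50 ± 0.07, with no overlap between mutant and control arrays.

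ARO3 and ARO4 encode the isoenzymes of the first step, inhibited by phenylalanine and by tyrosine. ARO3 fell in all 3 mutants, by 0.32, 0.37 and 0.28. ARO4 fell by 0.22 ± 0.06 in each truncation and rose by 0.23 ± 0.06 in the deletion (adjusted p = 0.0148). ARO7, the chorismate mutase, fell by 0.45 and 0.36 in the truncations, and its -0.19 in the deletion did not pass (adjusted p = 0.0523) except with the replicate block (adjusted p = 0.0101). The aminotransferases ARO8 and ARO9 did not pass, with differences from -0.11 to 0.12.

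Of the homoserine and threonine genes, the last enzymes fell and the shared upstream ones mostly did not pass. THR4, the threonine synthase, gave 0.01 and 0.02 in tagged Epl1, -0.30 and -0.38 in Epl1 1:380, -0.28 and -0.37 in Epl1 1:485, 0.04 and -0.00 in Eaf1 1:982, and -0.30 and -0.50 in the deletion. It fell by 0.36 ± 0.07 (adjusted p = 0.00434), 0.34 ± 0.07 (adjusted p = 0.00574) and 0.42 ± 0.07 (adjusted p = 0.0025). THR1, the homoserine kinase, fell by 0.40 and 0.37 in the truncations, and its -0.22 in the deletion passed with the replicate block alone (adjusted p = 0.0386). HOM3, the aspartate kinase that opens the pathway, rose by 0.19 in the deletion, with 0.12 and 0.05 in the truncations. HOM2 and HOM6, which carry aspartyl phosphate on to homoserine, had differences from -0.20 to 0.02.

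Serine synthesis split by step. SER2, the phosphoserine phosphatase of the last step, read -0.04 and -0.08 in tagged Epl1, -0.57 and -0.55 in Epl1 1:380, -0.57 and -0.54 in Epl1 1:485, -0.12 and -0.18 in Eaf1 1:982, and -0.57 and -0.62 in the deletion. The 6 mutant arrays lay within 0.1 of each other. SER2 fell by 0.51 ± 0.05 (adjusted p = 9.74e-05), 0.50 ± 0.05 (adjusted p = 0.000144) and 0.44 ± 0.05 (adjusted p = 0.000283). SER1, the phosphoserine aminotransferase, fell by 0.27 in Epl1 1:380 and in the deletion, and its -0.16 in Epl1 1:485 passed with the replicate block alone (adjusted p = 0.0354). SER3, a phosphoglycerate dehydrogenase of the first step, rose by 0.37 ± 0.08 and 0.32 ± 0.08 in the truncations and did not pass in the deletion (adjusted p = 0.974). The control strains differed for SER3, with -0.10 and 0.09 in tagged Epl1 and 0.28 and 0.15 in Eaf1 1:982. The deletion arrays of SER3 read 0.18 and 0.24, above those of tagged Epl1. Its paralog SER33 passed in none, with 0.09, 0.01 and -0.12.

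The asparagine synthetases fell in the truncations and not detectably in the deletion. ASN1 gave -0.08 and -0.16 in tagged Epl1, -0.79 and -0.81 in Epl1 1:380, -1.02 and -0.86 in Epl1 1:485, -0.15 and -0.15 in Eaf1 1:982, and -0.24 and -0.28 in the deletion. It fell by 0.68 ± 0.06 in Epl1 1:380 (1.60-fold, adjusted p = 7.34e-05) and by 0.82 ± 0.06 in Epl1 1:485 (1.77-fold, adjusted p = 4.61e-05), where it was called. The call in Epl1 1:485 was lost to the fold limit without replicate a of that strain (-0.74) and on the scale of added RNA (-0.56). In the deletion the difference was -0.11 ± 0.06 (adjusted p = 0.22).

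ASN2, the paralog of ASN1, gave 0.01 and -0.03 in tagged Epl1, -0.44 and -0.51 in Epl1 1:380, -0.41 and -0.45 in Epl1 1:485, 0.01 and -0.02 in Eaf1 1:982, and -0.06 and -0.03 in the deletion. The 4 truncation arrays stood well below all 6 others. It fell by 0.47 ± 0.05 and 0.42 ± 0.05 in the truncations, with -0.04 ± 0.05 in the deletion. The aspartate aminotransferases, which exchange aspartate and glutamate, moved otherwise. AAT1, the mitochondrial enzyme, fell by 0.41, 0.41 and 0.55, and AAT2, the cytosolic one, fell by 0.28 and 0.30, with -0.22 in the deletion that passed with the replicate block alone (adjusted p = 0.0161).

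Glutamate and glutamine genes gave both directions. GDH1, the NADP-dependent glutamate dehydrogenase of ammonia assimilation, read 0.04 and -0.17 in tagged Epl1, -0.43 and -0.33 in Epl1 1:380, -0.48 and -0.51 in Epl1 1:485, -0.06 and -0.10 in Eaf1 1:982, and 0.14 and 0.21 in the deletion. Truncation arrays were below and deletion arrays above all control arrays. GDH1 fell by 0.31 ± 0.07 (adjusted p = 0.00778) and 0.43 ± 0.07 (adjusted p = 0.00192) and rose by 0.25 ± 0.07 in the deletion (adjusted p = 0.0248). Its difference in the deletion did not pass from the normexp intensities (0.19, adjusted p = 0.418) or from print-tip loess of the intensities (0.28, adjusted p = 0.0813). Without replicate a of tagged Epl1, its difference of -0.21 in Epl1 1:380 did not pass either.

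GDH3, the paralog of GDH1, fell by 0.21 and 0.23 in the truncations, with -0.08 in the deletion. GLT1, the glutamate synthase, rose by 0.27 ± 0.08 in the deletion, with -0.10 and -0.03 in the truncations. GLN1, the glutamine synthetase, and GDH2, the NAD-dependent dehydrogenase that degrades glutamate, did not pass, with differences from -0.12 to 0.08.

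In proline synthesis, consecutive steps again differed. PRO1, the glutamate kinase of the first step, gave -0.05 and 0.04 in tagged Epl1, -0.46 and -0.41 in Epl1 1:380, -0.31 and -0.31 in Epl1 1:485, -0.13 and -0.05 in Eaf1 1:982, and -0.39 and -0.37 in the deletion. It fell by 0.43 ± 0.06 (adjusted p = 0.00039), 0.30 ± 0.06 (adjusted p = 0.00303) and 0.29 ± 0.06 (adjusted p = 0.00408). From the normexp intensities PRO1 passed in no mutant (adjusted p = 0.21, 0.317 and 0.392), and with the replicate block on them it passed in all 3. From print-tip loess it passed in Epl1 1:380 alone (adjusted p = 0.0355, 0.102 and 0.169). PRO2, the reductase of the next step, rose by 0.31 ± 0.06 and 0.30 ± 0.06 in the truncations, with 0.11 in the deletion that did not pass. PRO3, the reductase of the last step, fell by 0.20, 0.26 and 0.25.

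**Figure D3:**
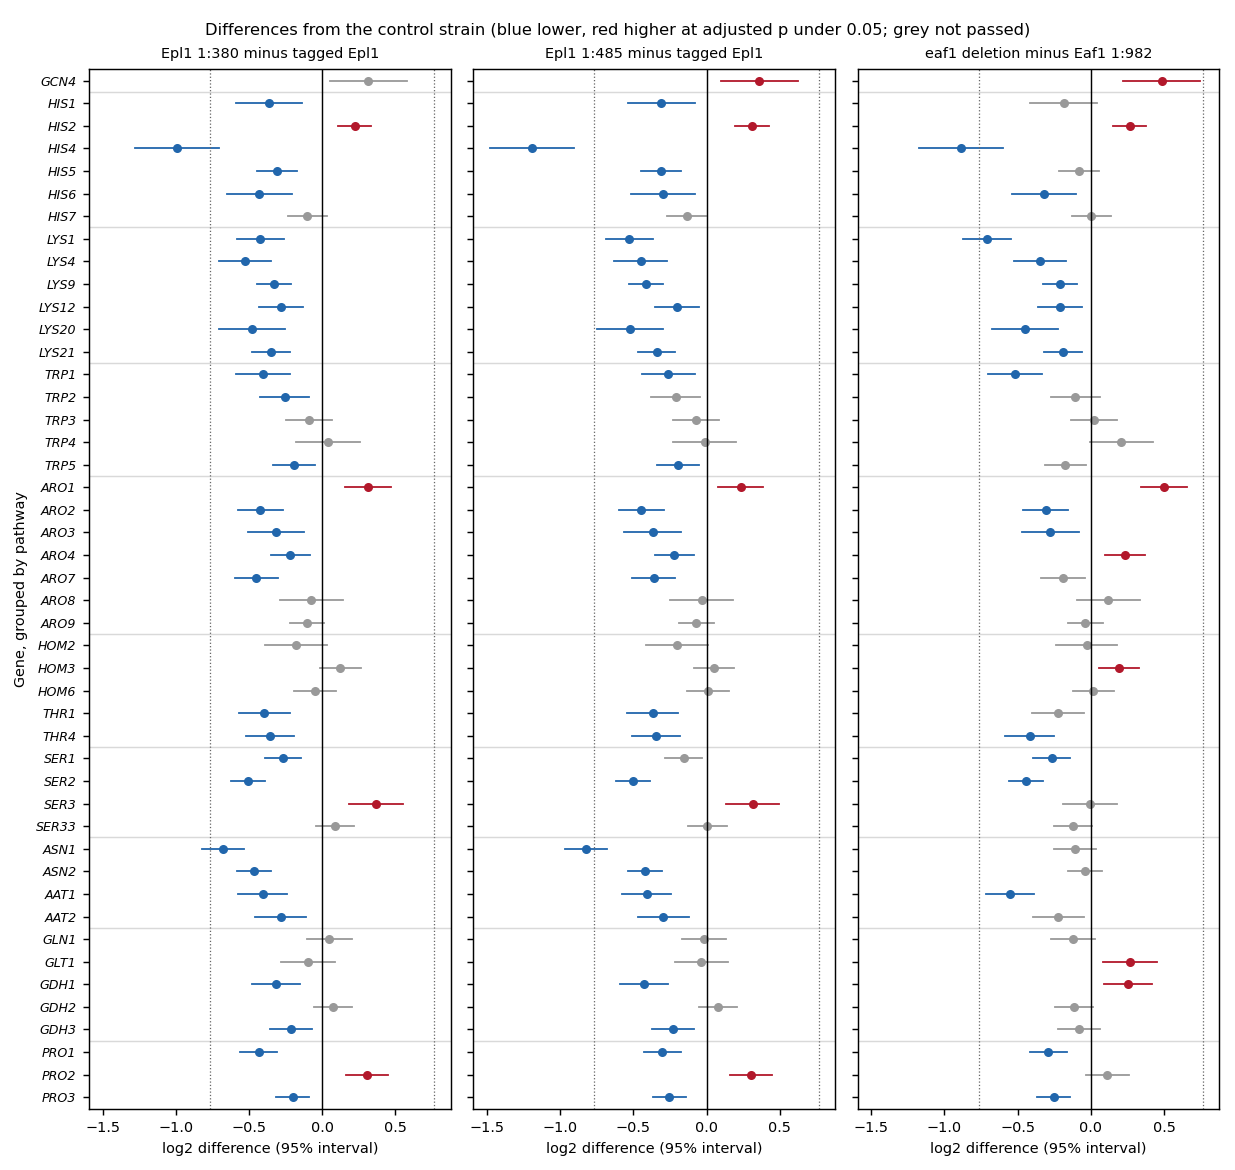
Log2 difference between each mutant and its control (points) with the 95% interval of the fit (lines) for the 46 genes, grouped by pathway, with dotted lines at the 1.7-fold limit. HIS4 lies past the limit in all 3 comparisons and ASN1 in Epl1 1:485, and the lysine genes lie to the left of 0 throughout.

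The effects of the deletion and of the truncations were then compared directly, as the deletion effect minus the mean of both truncation effects. Of the 46 genes, 4 passed and were higher, where 2.71% of all features were, and none passed as lower, against 3.21%. By the fold limit no member was called, against 0.423% of features higher and 0.659% lower. An unadjusted p under 0.05 in limma was found for 13 of the 46 members and for 1364 of 6377 features. The 4 genes were ASN1 with 0.64 ± 0.08 (adjusted p = 0.00378), GDH1 with 0.62 ± 0.10 (adjusted p = 0.00791), ARO4 with 0.45 ± 0.08 (adjusted p = 0.0121) and ASN2 with 0.40 ± 0.07 (adjusted p = 0.0107). ASN1 and ASN2 were lower in the truncations, with little difference in the deletion, while GDH1 and ARO4 moved in opposite directions. Values of ASN2 and ARO4 are given because they passed here, so they were chosen after their values were seen.

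The ARO4 arrays gave -0.16 and -0.23 in tagged Epl1, -0.36 and -0.45 in Epl1 1:380, -0.38 and -0.44 in Epl1 1:485, -0.01 and -0.03 in Eaf1 1:982, and 0.26 and 0.17 in the deletion. The deletion arrays were above all others and the truncation arrays below all others. From the normexp intensities the 4 differences were 0.70, 0.83, 0.54 and 0.42 for ASN1, GDH1, ARO4 and ASN2, and none passed (adjusted p = 0.297, 0.11, 0.502 and 0.219). With the dye orientation as a block on these intensities all 4 passed (adjusted p = 0.0025, 0.00188, 0.00433 and 0.026). From print-tip loess of the intensities, GDH1 passed (0.71, adjusted p = 0.0454) and the other 3 did not (adjusted p from 0.0785 to 0.16). With the replicate block on the matrix, GLT1 passed as well (0.33, adjusted p = 0.0458). ARO4 and ASN2 did not pass without replicate a of tagged Epl1 (adjusted p = 0.0631 and 0.0558) or without replicate b of Eaf1 1:982 (adjusted p = 0.0581 and 0.0549). On the scale of added RNA none of the 4 passed, with differences of 0.69, 0.67, 0.50 and 0.45.

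HIS4, LYS1 and SER2, among the strongest falls, did not differ detectably between deletion and truncations. Their differences of effects were 0.21 ± 0.17, -0.23 ± 0.09 and 0.06 ± 0.07, with adjusted p-values of 0.53, 0.191 and 0.654. The median half-width of a 95% interval of this difference was 0.202 over the members, with a range of 0.148 to 0.38. The interval of HIS4, with its larger SE, was wider than this median.

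**Figure D4:**
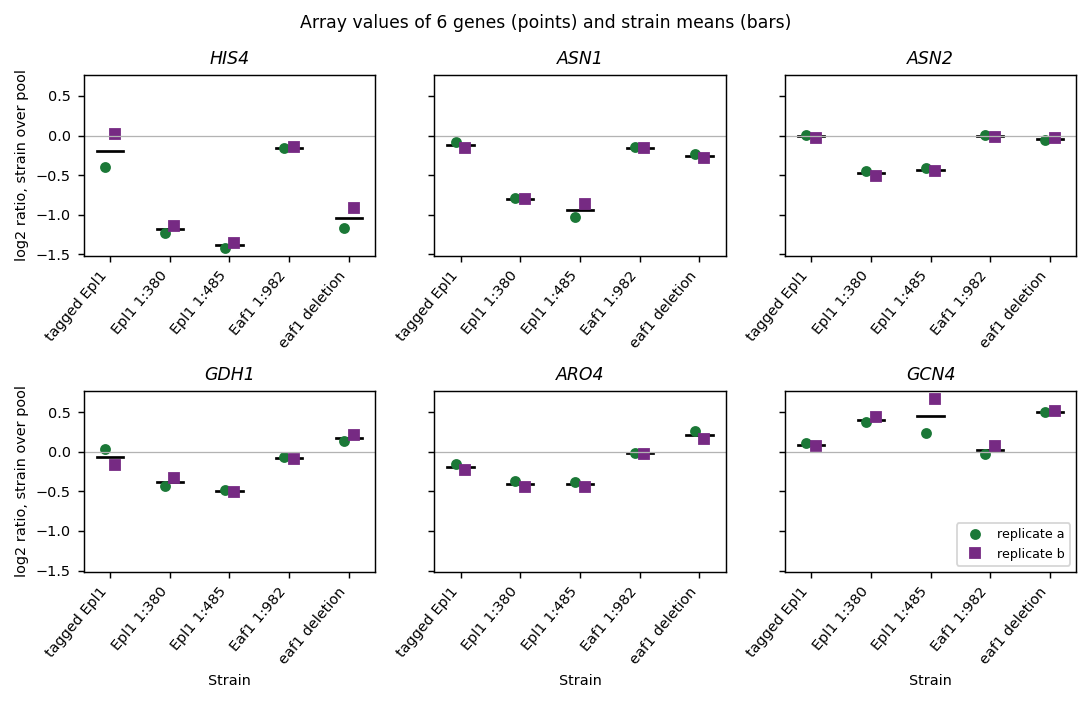
Log2 ratio of strain over pool on each array (circles for replicate a, squares for replicate b) and the strain mean (bars) for 6 genes. HIS4 is low in all 3 mutants, ASN1 and ASN2 are low in the truncations, GDH1 and ARO4 lie on opposite sides of the controls in truncations and deletion, and the mutant arrays of GCN4 lie above those of the controls.

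The truncations were also set against each other, since Epl1 1:380 lacks a stretch that Epl1 1:485 keeps. No member passed the test in limma, and 0% of all features passed or were called. An unadjusted p under 0.05 was found for 2 of the 46 members and 183 of 6377 features. The largest difference was that of HIS4, at 0.20, and the 95% intervals of all 46 members lay between -0.35 and 0.49, inside the fold limit. Between the control strains, Eaf1 1:982 minus tagged Epl1, no member passed, while 0.0627% of features passed and 0% were called. There 4 of the 46 members and 218 of 6377 features had an unadjusted p under 0.05. EPL1, which is not a member, was among the features that passed in limma, with 0.62 ± 0.07 (adjusted p = 0.0181). The largest difference among the members was that of SER3, at 0.22, and their intervals lay between -0.33 and 0.40.

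The levels of the members against the pool are given as a description. Their medians were -0.07 and -0.03 in tagged Epl1, -0.06 and -0.04 in Eaf1 1:982, -0.31 and -0.35 in Epl1 1:380, -0.30 and -0.30 in Epl1 1:485, and -0.24 and -0.22 in the deletion. The truncations were lowest, from -0.35 to -0.30, the deletion came next, and the 2 control strains lay closest to the pool with overlapping replicates. Pooled over members, the standard deviation between replicates was 0.055 to 0.109, the highest in the deletion.

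Other genes of the same pathways moved in both directions. Of 22 listed, 5 fell and 8 rose in Epl1 1:380, 3 fell and 7 rose in Epl1 1:485, and 4 fell and 6 rose in the deletion, with medians of 0.08, 0.04 and 0.04. HIS3, a further histidine enzyme, fell by 0.26 and 0.18 in the truncations and did not pass in the deletion (adjusted p = 0.979). LYS2, the aminoadipate reductase of lysine synthesis, fell by 0.21 in Epl1 1:380, with -0.14 and 0.05 in the others that did not pass. LYS5, which activates the Lys2 protein, did not pass, with 0.12, 0.14 and 0.10. LYS14, the activator of lysine genes, fell by 0.34 in Epl1 1:380 and by 0.30 in the deletion, with -0.26 in Epl1 1:485 that did not pass. CHA1, the serine and threonine deaminase, rose by 0.81 and 0.92 in the truncations and by 0.46 in the deletion, and GAD1, the glutamate decarboxylase, by 1.01, 0.75 and 0.29. PUT1 and PUT2, which degrade proline, rose by 0.40 and 0.42 in Epl1 1:380 and by 0.30 and 0.43 in Epl1 1:485, with 0.17 and 0.25 in the deletion that did not pass. Their activator PUT3 fell by 0.47, 0.48 and 0.45. UGA1, which degrades the product of Gad1, fell by 0.29 in the deletion and did not pass in the truncations.

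Among 11 genes that control GCN4 translation, 1 fell in each truncation and 2 rose in the deletion. One of the latter was GCN2, the kinase, which rose by 0.21. Of 16 amino acid permeases, 5 fell and 2 rose in each truncation, and 4 fell and 5 rose in the deletion. TAT1, a permease for aromatic and branched-chain amino acids, fell by 0.59, 0.52 and 0.47, and the broad permease AGP1 by 0.44, 0.40 and 0.40. Of those that rose, DIP5, a permease for glutamate and aspartate, did so by 0.30 and 0.32 in the truncations, and TAT2, BAP2 and PUT4 by 0.38, 0.43 and 0.29 in the deletion. The shares of all features given above, from 15.8% to 19.1% lower and 17.8% to 21.7% higher, are the background of these lists too.

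Of 8 measured genes of the arginine pathway, which Gcn4 also activates, 5 rose and 0 fell in each of the 3 comparisons, with medians of 0.37, 0.24 and 0.26. The largest rises were 2.40, 2.025 and 0.83, and 3, 3 and 1 of the 8 were called higher, against 2.76%, 2.23% and 2.07% of features. In the difference of effects, 2 of the 8 were called lower and 0 higher, with a lowest value of -1.38. Of all features, 0.659% were called lower there and 0.423% higher. Of 10 branched-chain genes, 2, 3 and 1 fell and 0, 0 and 4 rose, with medians of -0.15, -0.17 and 0.17. The difference between these lists and the 46 genes was not tested.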

How the data were processed

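RNA of 5 yeast strains was measured on 10 two-channel arrays against a common pool. Per the deposited protocol text, the authors computed the matrix values, log2 of Cy5 over Cy3, without background subtraction, normalised them by print-tip loess (span 0.4) and then removed gene-specific dye bias. The deposited scanner intensities served for alternatives. Matrix values were turned to strain over pool by the dyes in the labels, 2776 control spots of 15552 were left out, and spots were averaged per gene to 6377 features. limma 3.58.1 in R 4.3.3 fitted 1 coefficient per strain over all 10 arrays (5 residual and 4 prior degrees of freedom), with Benjamini-Hochberg adjustment over all features. The steps were tested on simulated data with independent noise of a common spread and changes larger than those of the members. That test therefore does not cover small differences or paired replicates. Figures were drawn with Python 3.11.15 and matplotlib 3.10.9.

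The members and lists were chosen with earlier results of these data known. Array values are given for GCN4, each member called, and in each pathway the member with the largest mean change. They are also given for ARO1, ASN2 and ARO4, and in part for SER3, which were chosen after their values were seen. Gene symbols came from the platform annotation. Sequences of genes and probes are not used here. Paralogs (ASN1 and ASN2, LYS20 and LYS21, SER3 and SER33, GDH1 and GDH3) may share hybridisation.

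The replicate letter stands for the dye orientation and paired the samples: deviations from strain means correlated between all pairs of strains (r 0.294 to 0.563, across genes). Alternatives were this replicate block, scanner intensities with normexp (offset 50) and loess (span 0.3) or print-tip loess, median centring, centring on 8 added RNA reporters, dim features left out, the brightest reporter of a gene, trend and robust eBayes, a fit of only the strains compared, other thresholds, and each array left out in turn. Counts of members passing without the fold limit, the members in the difference of effects, and the block on scanner intensities were added after seeing the data.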

Additional observations from a re-analysis of the deposited data

Results flagged for a closer look

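The effect of the eaf1 deletion differed from the mean effect of the truncations for 4 members by the test of the difference itself in limma. The log2 differences were 0.64 for ASN1, 0.62 for GDH1, 0.45 for ARO4 and 0.40 for ASN2. In each case the deletion lay higher relative to its control on both arrays than the truncations relative to theirs. None of the 4 passed from normexp intensities and all did with the dye orientation as a block on them, and GDH1 alone passed from print-tip loess of the intensities.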

How the results depend on the processing

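Counts are for Epl1 1:380, Epl1 1:485, the deletion and the difference of effects unless stated. Without the fold limit, 33, 32, 24 and 4 members were called. With added RNA, 0, 1 and 2 were called in the 3 mutants, the 2 in the deletion being higher. Of all 6377 features, 18, 13 and 8 were called lower on that scale and 343, 337 and 348 higher. From normexp intensities the deletion had 0 called, with or without the replicate block, and with that block the difference of effects had 1. That 1 was called higher, as were 29 of 6377 features. The calls lost when an array was left out, HIS4 in the deletion and ASN1 in Epl1 1:485, are given above with their differences. Members passing as lower numbered 17, 15 and 5 from normexp intensities, against 8.59%, 7.17% and 4.94% of all features. From print-tip loess they numbered 17 and 7 in Epl1 1:485 and the deletion, against 8.23% and 6.21%. With added RNA they numbered 1, 2 and 1, against 1.11%, 0.61% and 0.44%. Without Eaf1 1:982 replicate b, the members' median difference in the deletion was -0.15, against 0.01 over all features. Members passing as higher numbered 1, 1, 2 and 0 from normexp intensities. From print-tip loess they were 2, 2 and 1 in Epl1 1:485, the deletion and the difference, and the difference had 0 with added RNA. With the block on normexp intensities, 3 passed as higher in Epl1 1:485. Without tagged Epl1 replicate a, the members' median was -0.27 in Epl1 1:485, against 0.0016 over all features. Without Eaf1 1:982 replicate a it was -0.13 in the deletion, against 0.0026. In the difference it was 0.10 without tagged Epl1 replicate a, against 0.0053, and 0.11 without Eaf1 1:982 replicate b, against 0.0019. The cause of these shifts was not tested. With the replicate block on the matrix, 29, 29 and 21 members passed as lower and 5, 5 and 7 as higher, 5 in the difference, and 1, 2 and 1 were called as before. Of all features, 23.43%, 22.19% and 20.03% then passed as lower and 26.13%, 24.4% and 22.35% as higher, and 5.66% as higher in the difference. The members whose test changed with this block are named above.

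Of the members that passed, 14 of 33, 11 of 32 and 6 of 24 in the 3 mutants did so under every alternative except added RNA. When added RNA was included too, 1 of 33, 3 of 32 and 3 of 24 passed under every alternative. These counts have no share of all features beside them. With 2 arrays per strain, the median 95% half-width of a member's difference was 0.153, with a range of 0.112 to 0.288. This width limits what could be detected.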
